A study of Glycyrrhiza uralensis with 24 samples.

Results

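A set of 42 gene IDs of Glycyrrhiza uralensis, a licorice legume, was lower in aerial parts after both 2 h and 12 h in salt and did not meet the same criteria in roots. They were chosen from 34445 IDs by their group mean TPM (m); TPM scales the reads of a gene by its length and by the library's total. In aerial parts at 2 h and at 12 h, all 3 salt libraries had to lie below all 3 controls, the ratio of m + 1 in control to that in salt had to be at least 3-fold, and the larger m had to be at least 10 TPM. In roots, neither such a decrease nor its opposite was allowed at 2 h or 12 h. In aerial parts 278 IDs were lower at 2 h, 343 at 12 h and 63 at both. The other 21 of these 63 were set aside because of their roots, where 11 were lower at both times, 4 at 2 h alone, 5 at 12 h alone and 1 was higher at a time. The values at 6 h had no part in the choice.

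The seedlings were 60 days old per the labels. Salt plants stood in 150 mM NaCl in a nutrient solution (MS) for 2, 6 or 12 h, and control plants, taken at 0 h, are labelled as kept in distilled water. Stems and leaves (aerial parts) and roots were sequenced apart, with 3 libraries in each of 8 groups. The design text names the accumulation of pharmacological compounds as the study's interest. Salt and medium, and time in salt and time of day, cannot be told apart in these groups, and the control titles follow another pattern than the salt titles, so any batch behind that pattern cannot be told apart from salt either. Since nothing in the labels ties a library to a plant of its own, the p-values given here reflect how far these samples spread, which may be technical. The TPM of the listed IDs came to 47.6% to 49.7% of the TPM scale in aerial controls and 43.2% to 46.4% in aerial salt libraries. In roots it came to 47.3% to 51.1% in controls and 39.1% to 42.8% in salt libraries. Every salt library thus lay below every control of its organ, the direction in which the set was chosen in aerial parts. With libraries scaled to equal listed totals the rule chose 32 IDs, 29 of them in the set. Sequencing depth is unknown. Both 6 h libraries numbered 2 stood apart from the other 6 h libraries. Over the genes fitted in each organ, their root mean square distance on the log2(TPM + 1) scale to the mean of 2 h and 12 h was 1.12 in aerial parts and 1.35 in roots, against 0.70 to 0.75 and 0.74 to 0.84 for replicates 1 and 3.

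In plants, salt around the root first acts as an osmotic stress that is sensed in the root and relayed to the shoot, in part through the hormone abscisic acid, and stomata close. Sodium then reaches the leaves in the transpiration stream and builds up there. Genes of growth, cell wall extension and photosynthesis are commonly lowered in shoots during the osmotic phase. The IDs used here carry no gene names, so no role can be given to a member and neither organ could be checked against marker genes. A lower TPM in whole stems and leaves can come from fewer cells of a type or from less RNA per cell, which cannot be told apart.

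The members ranged widely in level before salt. Their aerial control mean ran from 10.1 to 309 TPM with a median of 30.6 TPM, with 15 members under 20 TPM and 5 at 100 TPM or more. Summed over the 42 members, the controls held 1741 to 2736 TPM, the 2 h libraries 286 to 627 TPM, the 6 h libraries 729 to 1053 TPM and the 12 h libraries 266 to 368 TPM. The decreases at 2 h and 12 h are the values that chose the members and are given here as a description with no test. The median log2 difference of m + 1 from control was -2.27 at 2 h and -2.46 at 12 h, and 27 of the 42 members had a lower mean at 12 h than at 2 h. The smaller of a member's ratios at 2 h and 12 h had a median of 4.06 and reached 25.2. Just inside the threshold were Glyur000064s00005632 at a ratio of 3.01, Glyur000410s00016183 at 3.03 and Glyur000007s00002801 at 3.04. Just outside were Glyur000073s00007830 at 2.91 and Glyur000083s00006972 and Glyur000330s00019510, both at 2.85. The number of members moved most with 2 of the libraries. Without aerial control replicate 2 the rule chose 172 IDs, 38 of them among the 42, and without aerial 2 h replicate 3 it chose 87, 41 of them among the 42. Fewer of the 42 were kept without the other aerial controls. Without replicate 3 the rule chose 62 IDs and kept 32, the fewest for any library left out. Without replicate 1 it chose 56 and kept 35.

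**Figure D1:**
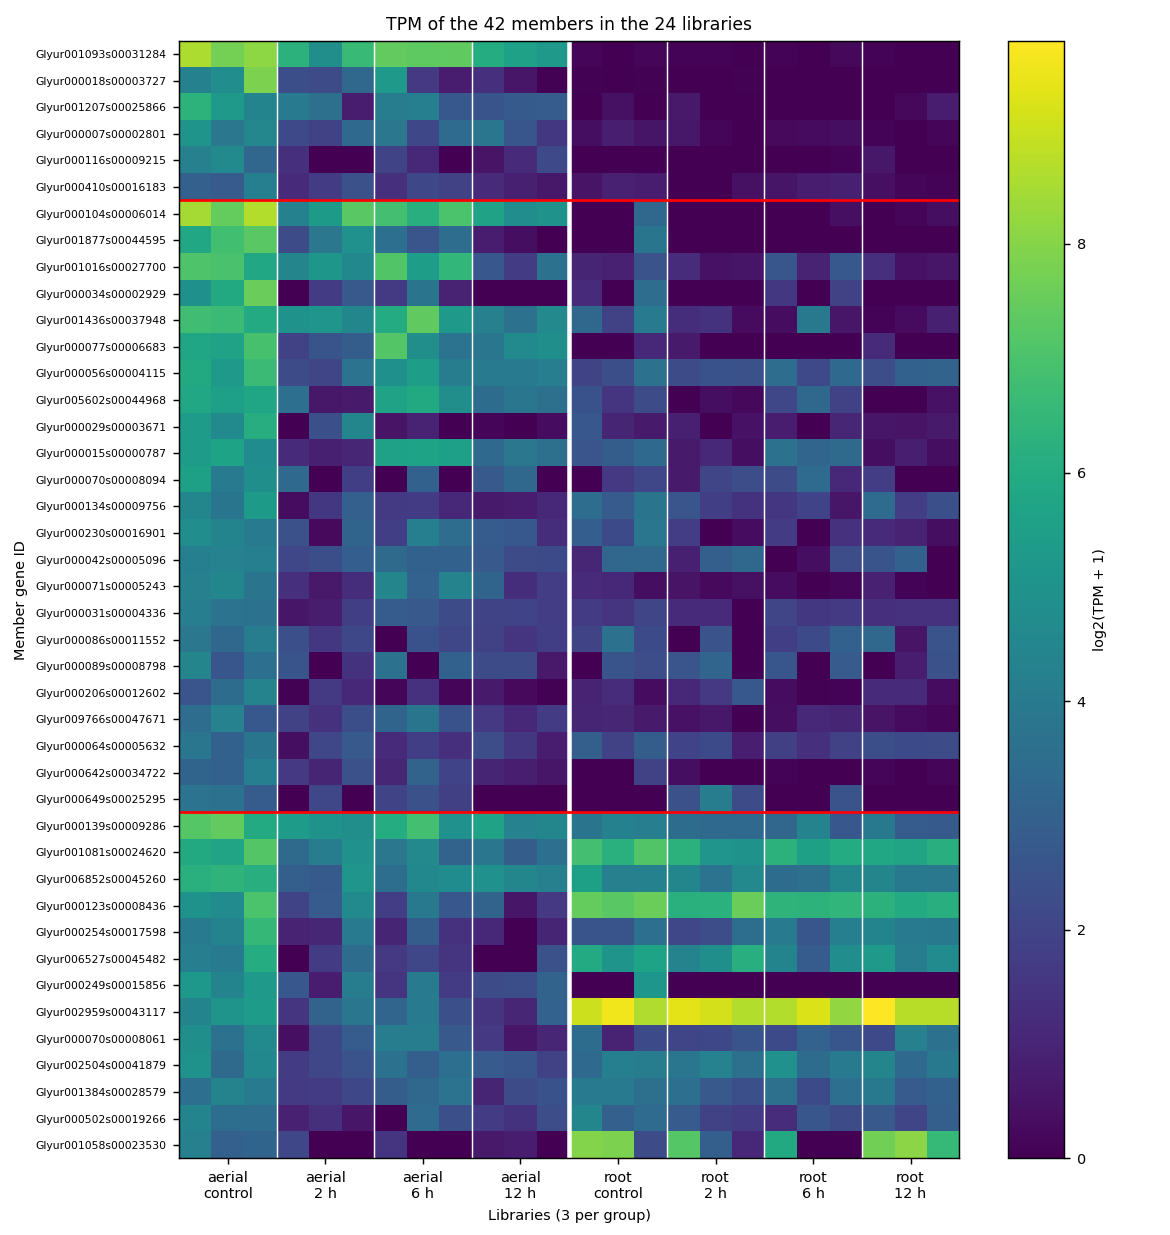
Level of each of the 42 members (rows) in each of the 24 libraries (columns, 3 per group), as log2(TPM + 1) by colour. The upper red line parts the 6 members under 1 TPM in every root library from the 23 between, and the lower red line marks off the 13 with a mean of at least 10 TPM in roots at control, 2 h or 12 h.

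Glyur000104s00006014 and Glyur001093s00031284 had the highest aerial control means. Glyur000104s00006014 had 348, 175 and 403 TPM in controls, 18.6, 39.3 and 154 TPM at 2 h, 116, 69.7 and 129 TPM at 6 h, and 48.3, 26.5 and 31.8 TPM at 12 h. Its 2 h libraries spread widely, with replicate 3 close to the lowest control, while its 12 h libraries lay close together. Glyur001093s00031284 had 377, 210 and 273 TPM in controls, 76.0, 27.4 and 95.3 TPM at 2 h, 171, 162 and 167 TPM at 6 h, and 65.5, 47.8 and 36.8 TPM at 12 h. Its 6 h libraries lay between the controls and the other salt times without overlap. Glyur000139s00009286 had 145, 169 and 62.4 TPM in controls, 41.8, 31.7 and 27.8 TPM at 2 h, 65.9, 114 and 29.6 TPM at 6 h, and 48.3, 19.4 and 21.4 TPM at 12 h. Its 6 h libraries reached into both the control range and the range of the other salt times.

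The deepest decreases ended at or close to 0 at 12 h. Glyur000034s00002929 had 28.6, 60.2 and 187 TPM in controls, 0, 2.33 and 5.72 TPM at 2 h, 2.19, 12.6 and 0.90 TPM at 6 h, and 0 TPM in each library at 12 h. Glyur001877s00044595 had 57.1, 113 and 153 TPM in controls, 3.87, 13.5 and 30.1 TPM at 2 h, 10.7, 5.02 and 10.3 TPM at 6 h, and 0.73, 0.28 and 0 TPM at 12 h. Its level was thus lowest at the last time, without overlap with any earlier library. Glyur000018s00003727 had 18.9, 26.5 and 231 TPM in controls, 4.11, 3.77 and 8.81 TPM at 2 h, 38.1, 2.04 and 0.68 TPM at 6 h, and 1.49, 0.52 and 0.05 TPM at 12 h. Its control mean rested on replicate 3, and 6 h replicate 1 lay within the control range. Only 1 other member, Glyur000649s00025295, was listed at 0 in every 12 h library of aerial parts, with 12.4, 11.8 and 6.11 TPM in controls.

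The remaining members with the largest decreases had lower control levels. Glyur000116s00009215 had 18.3, 24.6 and 8.43 TPM in controls, 1.48, 0 and 0 TPM at 2 h, 3.03, 1.16 and 0 TPM at 6 h, and 0.42, 1.29 and 3.47 TPM at 12 h. Glyur000134s00009756 had 21.5, 12.9 and 39.4 TPM in controls, 0.24, 2.02 and 7.03 TPM at 2 h, 2.13, 2.36 and 1.10 TPM at 6 h, and 0.64, 0.73 and 1.14 TPM at 12 h. Glyur000206s00012602 had 4.93, 10.1 and 19.99 TPM in controls, 0.03, 2.14 and 1.17 TPM at 2 h, 0.10, 1.64 and 0.11 TPM at 6 h, and 0.62, 0.20 and 0.04 TPM at 12 h. In these 3 members every salt library of aerial parts, 6 h included, lay below every control.

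Replicates did not contribute evenly. Of the 3 aerial libraries at 2 h, replicate 3 was the highest for 27 members, replicate 1 for 10 and replicate 2 for 5. Among the aerial controls, replicate 3 was the highest for 18 members, replicate 1 for 16 and replicate 2 for 8. The summed level was 627 TPM in 2 h replicate 3, against 307 and 286 TPM in replicates 1 and 2. How often each replicate was the highest over all genes was not counted, so these counts are not read as a trait of the members.

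At 6 h the members were not uniformly low, and the label of a decrease throughout salt did not hold for all of them. The median log2 difference of m + 1 between 6 h and control was -1.47 in aerial parts, and 22 of the 42 means were within 3-fold of control. All 3 libraries lay below all 3 controls for 26 members, against 9.65% of all 15744 genes fitted in aerial parts, while 16 members overlapped the controls or stood above them. The controls were chosen as high, so the share is a description only. Replicate 2, the library that stood apart, had a median difference of -1.35, against -1.65 in replicate 1 and -1.75 in replicate 3. Without it the median over members was -1.89, and 20 members were within 3-fold of control.

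**Figure D2:**
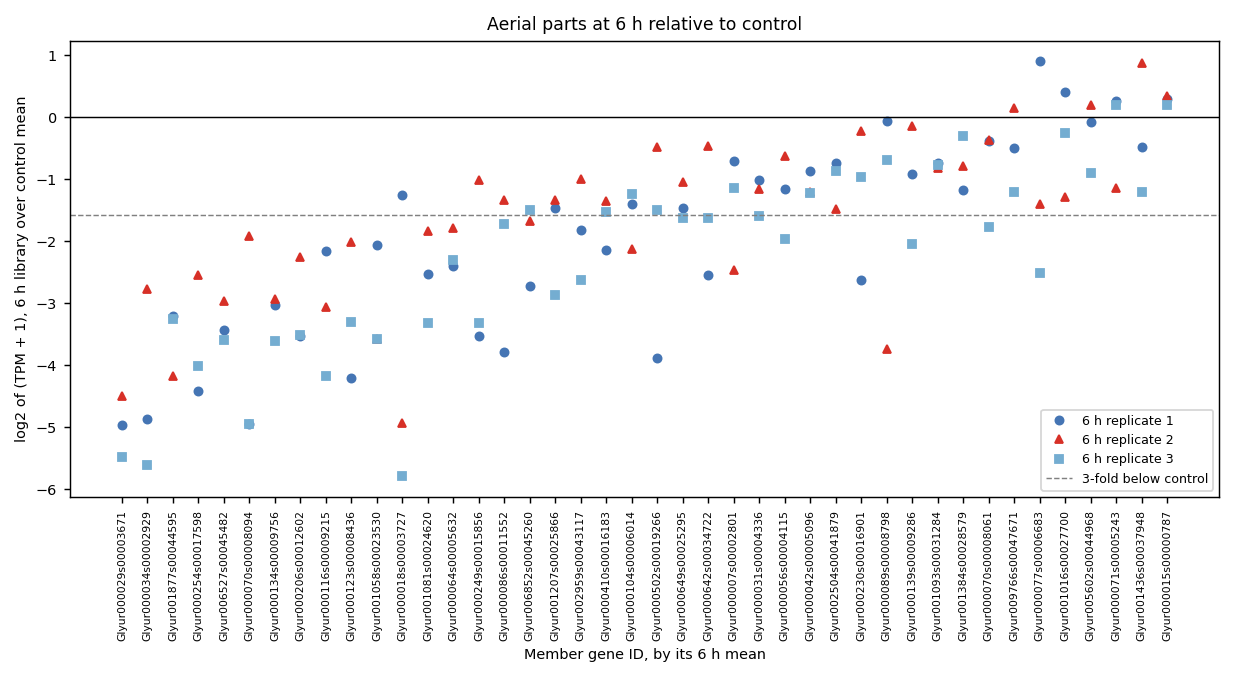
Log2 of (TPM + 1) in each aerial 6 h library over the aerial control mean, for each of the 42 members in the order of their 6 h mean. The solid line is the control mean and the dashed line 3-fold below it; members on the left lie below the dashed line in all 3 libraries or nearly so, and those on the right scatter around the control mean.

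The members closest to control at 6 h formed a valley, a peak and a second valley over time. Glyur000015s00000787 had 40.4, 49.9 and 26.1 TPM in aerial controls, 1.30, 0.80 and 1.05 TPM at 2 h, 48.0, 49.3 and 44.7 TPM at 6 h, and 9.06, 13.7 and 11.4 TPM at 12 h. It was the only member whose 6 h mean was at or above its control mean. Glyur005602s00044968 had 56.5, 44.6 and 54.5 TPM in aerial controls, 10.8, 0.55 and 0.65 TPM at 2 h, 48.9, 59.8 and 27.4 TPM at 6 h, and 9.86, 13.3 and 11.3 TPM at 12 h. Of its 6 h libraries replicate 1 lay within the control range, replicate 2 above it and replicate 3 below it.

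Glyur001016s00027700 had 133, 124 and 56.8 TPM in aerial controls, 20.9, 34.9 and 22.5 TPM at 2 h, 139.8, 42.5 and 88.1 TPM at 6 h, and 5.31, 2.23 and 11.7 TPM at 12 h. Glyur001436s00037948 had 108, 99.7 and 62.0 TPM in controls, 31.2, 33.3 and 21.1 TPM at 2 h, 64.2, 165 and 38.4 TPM at 6 h, and 18.3, 11.8 and 23.5 TPM at 12 h. In both, every 6 h library lay above every 2 h and 12 h library while overlapping the controls or reaching beyond them. In aerial parts 10 members showed 6 h libraries above all 2 h and all 12 h libraries, against 1.73% of the genes fitted; the rule had chosen 2 h and 12 h as low, so nothing is read from the share. Besides these 4, they were Glyur000031s00004336, Glyur000042s00005096, Glyur001093s00031284, Glyur001384s00028579, Glyur002504s00041879 and Glyur009766s00047671.

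Other members near control at 6 h depended on single libraries. Glyur000077s00006683 had 54.9, 48.8 and 122 TPM in aerial controls, 2.71, 4.80 and 6.37 TPM at 2 h, 141, 27.8 and 12.3 TPM at 6 h, and 13.4, 24.1 and 28.6 TPM at 12 h. Only its 6 h replicate 1 reached the controls. Glyur000071s00005243 had 18.1, 21.3 and 12.6 TPM in controls, 1.49, 0.58 and 1.40 TPM at 2 h, 20.9, 7.32 and 19.98 TPM at 6 h, and 7.87, 1.44 and 2.43 TPM at 12 h, and its 6 h replicate 2 was the low one.

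At the other end, several members stayed low at 6 h. Glyur000029s00003671 had 41.4, 23.7 and 66.6 TPM in aerial controls, 0, 4.20 and 21.5 TPM at 2 h, 0.44, 0.99 and 0 TPM at 6 h, and 0.09, 0 and 0.25 TPM at 12 h, so that its 2 h replicate 3 was the last library near the controls. Glyur000254s00017598 had 15.6, 19.9 and 90.2 TPM in controls, 0.91, 1.07 and 14.8 TPM at 2 h, 1.01, 6.36 and 1.66 TPM at 6 h, and 1.20, 0 and 1.04 TPM at 12 h. Glyur000070s00008094 had 46.3, 15.6 and 28.1 TPM in controls, 9.18, 0 and 2.51 TPM at 2 h, 0, 7.23 and 0 TPM at 6 h, and 5.58, 8.64 and 0 TPM at 12 h. It switched between 0 and several TPM within every salt group. It shared the first field of its ID with Glyur000070s00008061, with last fields 33 apart, and no other members shared a first field.

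Of the 37 members above 0 in a root 6 h library, the number that was highest in aerial parts was also highest in roots for 15, where 52.1% of 16236 genes showed this, and for 9 of these it was replicate 2. The share of replicate 2 over all genes was not counted. Glyur000139s00009286, for example, had 114 TPM in aerial replicate 2 and 65.9 and 29.6 TPM in replicates 1 and 3, and 19.8 TPM in root replicate 2 and 8.45 and 5.22 TPM in root replicates 1 and 3.

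**Figure D3:**
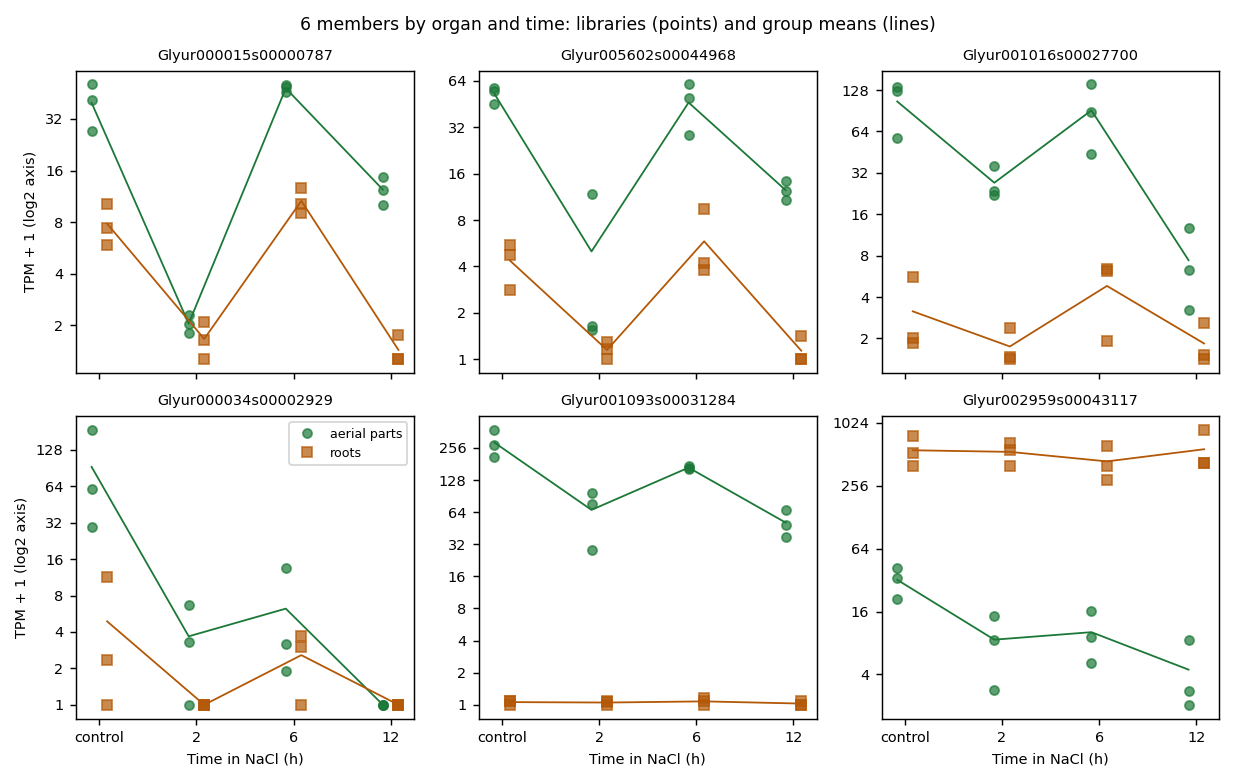
TPM + 1 on a log2 axis for 6 members in control and after 2, 6 and 12 h in NaCl, with aerial libraries as green circles, root libraries as orange squares and lines through group means. Glyur000015s00000787 and Glyur005602s00044968 dip at 2 h and 12 h in both organs, while Glyur002959s00043117 is lowered in aerial parts and stays at 293 to 876 TPM in roots.

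Both salt times had been chosen as low, so their difference is a description, with no test. On the log2(TPM + 1) scale of the limma fit, 12 h minus 2 h in aerial parts had a median of -0.27 over the 42 members and 0.05 over all 15744 genes fitted. It ran from -3.32 for Glyur001877s00044595 to 2.58 for Glyur000015s00000787. At 12 h the libraries lay wholly above those at 2 h for 4 members, Glyur000015s00000787 included, where 19.1% of genes did so, and wholly below for 4, where 11.5% did.

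In roots, few members had a level at which the rule could have called a change. Only 13 had a mean of at least 10 TPM in root control, 2 h or 12 h, 6 were under 1 TPM in every root library, and 23 lay between. In 4 members with low root levels, root libraries at 2 h and at 12 h were all below all root controls and at least 3-fold lower by m + 1, so that for these the restriction to aerial parts rested on the level of 10 TPM alone. They were Glyur000015s00000787, Glyur000230s00016901, Glyur001436s00037948 and Glyur005602s00044968. The level alone also kept Glyur000649s00025295 from being called in the opposite direction in roots. Its root 2 h libraries were all above all root controls, by 3.19 on the log2 scale of m + 1, with a mean of 8.15 TPM. Over all 42 members, root libraries lay below root controls without overlap for 11 at 2 h, where 18.3% of all 16138 genes fitted in roots did so, for 11 at 12 h (17.8%) and for 8 at both times (12.2%). Of the 42 members, 9 averaged under 0.5 TPM in roots and were not among the genes fitted. Glyur000410s00016183, at both times, and Glyur000007s00002801, at 12 h, are such members within these counts. The root contrasts at 2 h and 12 h were part of the rule and nothing is read from them.

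Glyur000015s00000787 was low at 2 h and 12 h in roots too, with 4.90, 6.37 and 9.24 TPM in root controls, 0.64, 1.10 and 0.27 TPM at 2 h, 11.6, 8.09 and 9.28 TPM at 6 h, and 0.28, 0.76 and 0.28 TPM at 12 h. In roots the 12 h libraries lay within the range of those at 2 h, while in aerial parts 12 h, at 9.06 to 13.7 TPM, stood above 2 h, at 0.80 to 1.30 TPM.

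Glyur005602s00044968 had 4.51, 1.83 and 3.77 TPM in root controls, 0, 0.29 and 0.16 TPM at 2 h, 3.21, 8.51 and 2.77 TPM at 6 h, and 0, 0 and 0.41 TPM at 12 h. In both members every root library at 6 h lay above every root library at 2 h and 12 h. In all, root libraries were ordered in this way for 4 members, against 3.06% of the genes fitted, and the others were Glyur000031s00004336 and Glyur000410s00016183. Glyur000410s00016183 was under 1 TPM in every root library and averaged under 0.5 TPM there, so it was not among the genes fitted. The rule used root 2 h and 12 h, so nothing is read from the share.

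Glyur001436s00037948 and Glyur000230s00016901 were the remaining members low in roots at both times but for their level. Glyur001436s00037948 had 8.79, 2.66 and 15.8 TPM in root controls, 1.42, 1.72 and 0.23 TPM at 2 h, 0.26, 14.7 and 0.51 TPM at 6 h, and 0.08, 0.21 and 0.82 TPM at 12 h. Its high 6 h library was replicate 2, as in aerial parts. Glyur000230s00016901 had 6.55, 3.63 and 13.4 TPM in root controls, 2.45, 0 and 0.24 TPM at 2 h, 2.24, 0 and 1.60 TPM at 6 h, and 1.28, 0.89 and 0.27 TPM at 12 h, and no root salt library reached the controls.

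Against root controls, which the rule also used, root 6 h libraries gave no called member. In 33 members that passed the filter (an average of 0.5 TPM or more in roots), the lowest limma adjusted p was 0.108, and 5 members had an unadjusted p under 0.05, against 16.9% of all genes tested. Over all genes 0.558% were called, so the lack of a call among 33 members is near that share and nothing is read from it. All 3 root 6 h libraries lay below all root controls for 7 of the 42 members, against 11.3% of genes that passed the filter. Of the 7, Glyur000071s00005243 did not pass it. Without root 6 h replicate 2, the library that stood apart, 2 members were called, Glyur000134s00009756 at -2.30 (limma adjusted p = 0.0481) and Glyur001436s00037948 at -2.62 (limma adjusted p = 0.0433). In that fit 790 genes were called in place of 90.

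The 6 members under 1 TPM in every root library were Glyur000007s00002801, Glyur000018s00003727, Glyur000116s00009215, Glyur000410s00016183, Glyur001093s00031284 and Glyur001207s00025866. At these levels the rule could not have called a change in roots. Below 1 TPM, Glyur000410s00016183 at 2 h and 12 h and Glyur000007s00002801 at 12 h still lay below root controls without overlap. Glyur001093s00031284, at 210 to 377 TPM in aerial controls, was at most 0.15 TPM in any root library. A further 4 members were under 1 TPM in 11 root libraries and above it in root control replicate 3 alone, with 8.67 TPM for Glyur000104s00006014, 34.2 TPM for Glyur000249s00015856, 2.84 TPM for Glyur000642s00034722 and 13.0 TPM for Glyur001877s00044595. Glyur000249s00015856 counted among the 13 members with a root mean of at least 10 TPM by that library alone. Root control replicate 3 was the highest of the 12 root libraries for 12 members, and the share over all genes was not counted.

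In 5 members the root mean was above the aerial mean already in controls, and all 5 were among the 13 with a root mean of at least 10 TPM. Glyur002959s00043117 had 524, 760 and 393 TPM in root controls, 662, 559 and 397 TPM at 2 h, 399, 620 and 293 TPM at 6 h, and 876, 421 and 418 TPM at 12 h, and these ranges overlapped throughout. In aerial parts it had 20.3, 32.7 and 40.7 TPM in controls, 1.84, 7.54 and 13.5 TPM at 2 h, 8.10, 15.2 and 4.19 TPM at 6 h, and 1.80, 1.05 and 7.5 TPM at 12 h. It had the highest root level of the 42 members.

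Glyur000123s00008436 had 176, 155 and 193 TPM in root controls, 73.4, 74.7 and 192 TPM at 2 h, 81.6, 78.7 and 86.3 TPM at 6 h, and 76.2, 61.4 and 68.5 TPM at 12 h. Its root levels at 6 h and 12 h were below the controls without overlap, short of the 3-fold limit, and 2 h replicate 3 lay within the controls. In aerial parts it had 31.3, 25.5 and 128 TPM in controls, 3.06, 5.92 and 24.9 TPM at 2 h, 2.39, 14.5 and 5.32 TPM at 6 h, and 7.69, 0.52 and 2.10 TPM at 12 h. Glyur001081s00024620 had 114, 72.7 and 139 TPM in root controls, 76.0, 33.4 and 31.7 TPM at 2 h, 76.0, 46.1 and 63.7 TPM at 6 h, and 55.9, 50.8 and 69.7 TPM at 12 h. Only its root 12 h libraries lay wholly below the controls.

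Glyur006527s00045482 had 61.8, 32.0 and 49.7 TPM in root controls, 19.7, 27.9 and 70.1 TPM at 2 h, 20.3, 6.17 and 26.5 TPM at 6 h, and 37.2, 16.0 and 25.1 TPM at 12 h. In aerial parts it had 17.0, 15.5 and 64.7 TPM in controls and 0 to 9.94 TPM in all salt libraries. Glyur006852s00045260 had 46.3, 18.3 and 18.4 TPM in root controls and 10.0 to 23.5 TPM in root salt libraries, and in aerial parts 73.6, 81.5 and 71.3 TPM in controls, 6.80, 5.80 and 33.4 TPM at 2 h, 10.6, 22.9 and 26.2 TPM at 6 h, and 29.9, 21.2 and 18.2 TPM at 12 h. Its aerial libraries at 6 h and 12 h lay within the range of the root libraries. At 2 h, replicates 1 and 2 lay below every root library and replicate 3 within their range.

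Glyur001058s00023530 varied widely between root libraries of 1 group. It had 248, 232 and 3.79 TPM in root controls, 146, 6.76 and 1.14 TPM at 2 h, 61.0, 0 and 0 TPM at 6 h, and 207, 269 and 92.4 TPM at 12 h. In aerial parts it had 17.9, 7.09 and 7.80 TPM in controls and 0 to 3.18 TPM in salt libraries. No root time stood apart from the root controls.

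The rule took members with high aerial controls and low aerial 2 h and 12 h libraries, so the balance between the organs at those times follows from the choice and is given as levels only. In controls the aerial mean was above the root mean for 37 of 42 members, and the median member stood at 30.6 TPM in aerial parts and 4.60 TPM in roots. At 2 h the aerial mean was the higher for 27 members, with medians of 4.03 and 1.34 TPM, at 6 h for 31, with medians of 8.60 and 2.36 TPM, and at 12 h for 25, with medians of 3.27 and 0.83 TPM. At 6 h, which the rule did not use, aerial libraries were wholly above root libraries for 21 members, where 15.2% of 16718 genes were so, and wholly below for 4, where 21.5% were. Members were still chosen by their aerial control level and by the root condition, so nothing is read from these shares.

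Aerial parts at 6 h were tested against roots at 6 h, with all 24 libraries in 1 limma fit. Of the 42 members 19 were higher in aerial parts (45.2%) and 4 lower (9.52%), where 28.7% of 16718 genes were called, 12.3% higher and 16.3% lower. Members had been chosen with an aerial control mean of at least 10 TPM. Among the 6302 genes with that level 38.4% were called, 22.7% were higher and 15.6% lower. The rule's root condition was not applied to these genes. Only 13 of the 42 members reached 10 TPM in a root group of the rule, and the rest met that condition by level. The members' shares can therefore follow in part from the choice, and nothing is read from their distance to the other genes. The median log2 difference was 1.04 over members and -0.20 over all genes, and other scalings of the libraries moved the latter to -0.30 or -0.02. The share of calls that were higher was 43.1% over all genes, and 53.4% after median-of-ratios scaling. With the library number as a block 21 members were higher and 5 lower, against 15% and 21.8% of genes. Without both 6 h libraries numbered 2, 14 were higher and 5 lower, against 11% and 16.1% of genes, and 18 of these 19 were among the 23.

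Glyur001093s00031284 had 171, 162 and 167 TPM in aerial parts at 6 h and 0.08, 0 and 0.15 TPM in roots at 6 h, a log2 difference of 7.28 (SE 0.33, limma adjusted p = 1.45e-12). Glyur000104s00006014 had 116, 69.7 and 129 TPM in aerial parts and 0, 0 and 0.33 TPM in roots, a log2 difference of 6.54 (SE 0.70, limma adjusted p = 5.47e-07). Both were near absent from roots at this time, so the size of the difference depends on the pseudocount of 1. Glyur000077s00006683, called at a limma adjusted p of 2.12e-06, was listed at 0 in all 3 root libraries at 6 h, as were Glyur000018s00003727, Glyur000249s00015856, Glyur001207s00025866 and Glyur001877s00044595, and no fold is given for these 5.

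Another 3 of the 19 members higher in aerial parts at 6 h ranged in their root level. Glyur000015s00000787, at 44.7 to 49.3 TPM in aerial parts and 8.09 to 11.6 TPM in roots at 6 h, differed by 2.19 (SE 0.28, limma adjusted p = 4.48e-06). Glyur001016s00027700, at 42.5 to 139.8 TPM in aerial parts and 0.92 to 5.38 TPM in roots, differed by 4.27 (SE 0.58, limma adjusted p = 1.06e-05). Glyur000071s00005243, at 7.32 to 20.9 TPM in aerial parts and 0 to 0.25 TPM in roots, was near absent from roots, and its difference of 3.80 (SE 0.44, limma adjusted p = 1.58e-06) depends on the pseudocount, with 6.17 at 0.1 and 1.96 at 5. In all 3 members the organs did not overlap at 6 h.

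The 4 members lower in aerial parts at 6 h were among the 5 with a root mean above the aerial mean in controls. Glyur002959s00043117 differed by -5.51 (SE 0.57, limma adjusted p = 3.60e-07), Glyur000123s00008436 by -3.59 (SE 0.71, limma adjusted p = 0.000621) and Glyur001081s00024620 by -2.09 (SE 0.47, limma adjusted p = 0.00188). Glyur001081s00024620 had 13.8, 23.0 and 7.61 TPM in aerial parts at 6 h and 46.1 to 76.0 TPM in roots. Glyur006527s00045482 differed by -2.29 (SE 0.79, limma adjusted p = 0.0364), with 2.08, 3.28 and 1.75 TPM in aerial parts at 6 h. That last call was lost with median-of-ratios scaling, with a pseudocount of 0.1, with no filter, and without aerial or root 6 h replicate 1 or 3, and its adjusted p ran from 0.00865 to 0.167 over the alternatives.

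**Figure D4:**
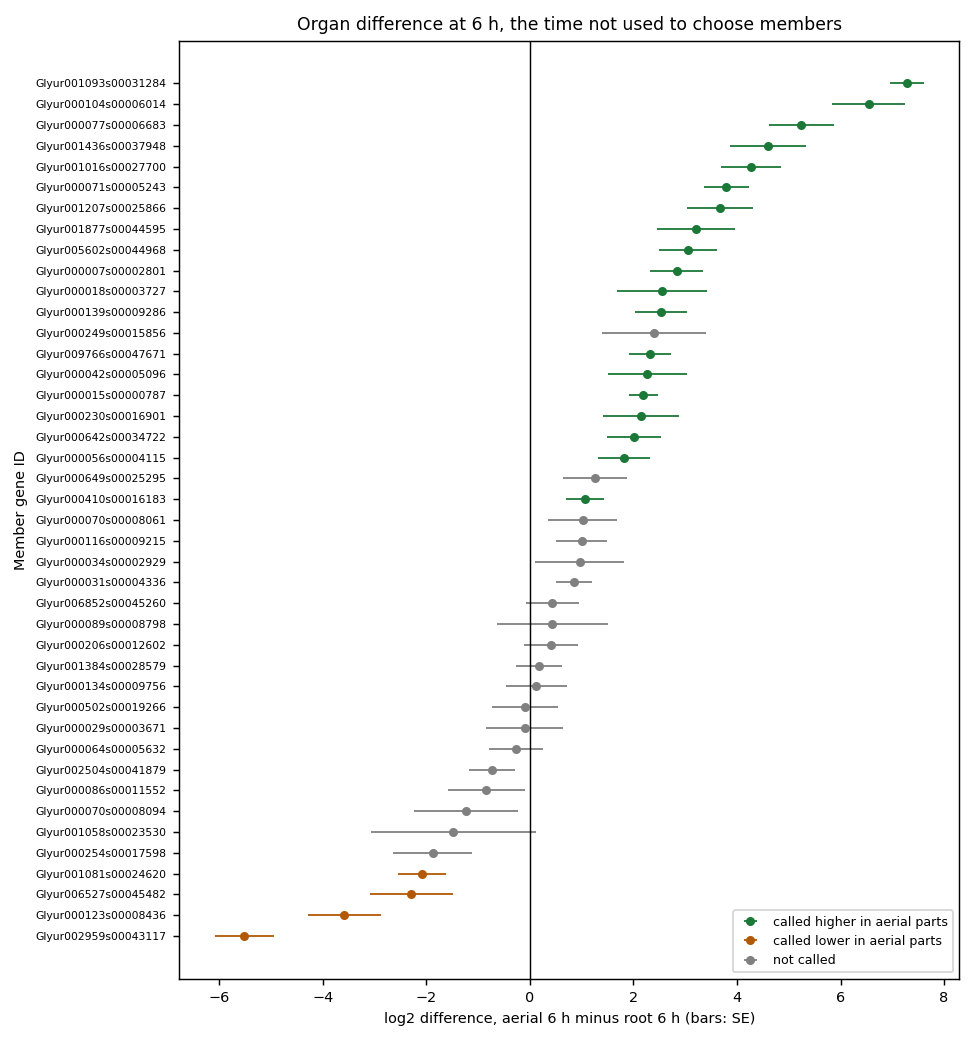
Log2(TPM + 1) in aerial parts minus roots at 6 h for the 42 members, with the standard error of the limma fit as bars and calls at an adjusted p under 0.05 in colour. Of the members, 19 are called higher in aerial parts and 4 lower, from 7.28 for Glyur001093s00031284 to -5.51 for Glyur002959s00043117; 5 members are listed at 0 in all 3 root libraries, and the size of their difference depends on the pseudocount.

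Root libraries stood wholly above root controls for 1 member at 2 h, where 11.7% of 16138 genes did so, and for 1 at 12 h, where 13.8% did. The member at 12 h was Glyur000254s00017598, which had 4.89, 4.87 and 11.0 TPM in root controls, 3.25, 3.90 and 10.5 TPM at 2 h, 15.9, 5.19 and 17.5 TPM at 6 h, and 20.1, 14.8 and 14.5 TPM at 12 h. Its 12 h root libraries were all above the controls while its aerial libraries at 12 h were at most 1.20 TPM. The member at 2 h, Glyur000649s00025295, was listed at 0 in all root controls and all root 12 h libraries, and had 4.41, 16.3 and 3.72 TPM at 2 h and 0, 0 and 4.66 TPM at 6 h in roots. It was therefore seen in roots in 4 of 12 libraries, all in salt.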

How the data were processed

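The files hold 1 table of TPM per library, per the file headers, as the authors deposited them. Of tools, the submitters' processing notes list edgeR, DESeq2, RSEM, StringTie, HISAT2 and fastp, with no version; the genome build is not given in the sources examined. The labels call the NaCl treatment a drought simulation, and it was taken as salt. Of 38135 rows per library, those of 1 ID were summed (2751 IDs had several, 2 of them members). No libraries were identical.

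Members and lists were chosen with earlier results of these data known. A count test had been planned only for counts. TPM were therefore tested as log2(TPM + 1) with limma 3.58.1 (mean-variance trend, R 4.3.3) on genes averaging 0.5 TPM or more in the fitted libraries, with Benjamini-Hochberg adjustment over all of them and calls at 0.05, two-sided. This scale understates changes of low genes. Members were counted with Python 3.11.15. The test was also run on simulated data whose residuals were shuffled within each gene. Such data lack the correlation of same-numbered libraries described below, so nothing is read from that run. Gene lists by pathway could not be applied to unnamed IDs.

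Members named in the text were the 8 with the highest aerial control means, the 8 with the largest decreases, the 6 highest in roots, the 4 highest and the 4 lowest at 6 h without replicate 2, up to 6 called per comparison and direction, the 3 on each side of the threshold and neighbours by ID. The others were named after their values were seen.

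Salt libraries of aerial parts and roots share 9 title numbers. Residuals of same-numbered libraries correlated at 0.20 to 0.57 over 16718 genes, each best with its own number, so the numbers were taken as pairs and tried as a block. Aerial 12 h against 2 h was planned as a test and is given as a description, since the rule used both groups. Alternatives were pseudocounts, filters, scalings, the libraries fitted and each library left out in turn.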

Additional observations from a re-analysis of the deposited data

Results flagged for a closer look

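A pair of members stood on opposite sides of control in the organs, with every library of a salt time on one side of every control; the difference between organs was not tested for either. Glyur000254s00017598 at 12 h was above control in roots, by 1.14 on the log2 scale of m + 1, and below control in aerial parts. Glyur000649s00025295 at 2 h averaged 8.15 TPM in roots, where every control was listed at 0, and was below control in aerial parts.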

How the results depend on the processing

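No recomputed value of a named member and no recomputed median over members changed sign under the alternatives run. Values were recomputed for up to 6 called members per direction in aerial against root 6 h. Medians were recomputed for aerial 12 h minus 2 h and for aerial 6 h against control. Of the recomputed medians and counts 88 stayed close to their value and 17 moved. The balance of genes called in aerial against root 6 h turned under median-of-ratios scaling, with 2411 higher and 2108 lower, against 2063 higher and 2729 lower with TPM as deposited. In root 6 h against control 57.8% of calls were higher, against 70.3% and 84% under the same scaling and under equal listed totals. The member count was 91 at 2-fold (39 shared with the 42) and 16 at 5-fold (13 shared), and 39 to 172 with 1 library left out. Scaling gave 32 or 35 members (29 or 32 shared). When the fit held just the 6 libraries compared, genes called were 3059 for aerial against root 6 h (4792 with all) and 0 for root 6 h against control (90 with all). Root 6 h against control gave 45 genes at pseudocount 5 and 10 with no filter. The replicate block, which pairs libraries by number, was run for aerial against root 6 h and called 26 members and 6157 genes. With 1 library left out, root 6 h against control had 0 to 2 members and 12 to 790 genes. The median of aerial 12 h minus 2 h over members was -0.531 to -0.0629, and that of aerial 6 h against control -1.89 to -1.31. Among the recomputed values of named members 143 kept their side of the threshold and 7 lost their call, all of Glyur006527s00045482. The cause of these differences was not tested. Depth is unknown, so the counting error of low TPM cannot be given.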
